A study of Mus musculus with 8 samples.

Results

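Solute carriers are membrane proteins that move sugars, amino acids, ions, metals, nucleotides and vitamins across the cell surface and the membranes of organelles. The genes with a symbol that starts with Slc and a number, that is the members of the solute carrier families, were described here in stromal cell lines. The array held 347 such genes with a probe set of a single gene symbol, and the 171 of them with a value of at least 100 on at least 2 of 8 arrays are called the members. This level chose them from the measured values, Slc26a7 was named in the choice because it falls in co-culture, and genes of the Slco group were left out. The members were among 10084 genes of 18194 on the array that reached the same level, and the remaining 176 Slc genes did not.

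RNA was measured on Affymetrix Mouse Genome 430 2.0 arrays, with 2 arrays for each of 4 groups. The groups were NIH3T3, an embryonic fibroblast line, MC3T3, an osteoblast-like line, OP9, a bone marrow stroma line, and OP9 cells co-cultured with 230-238, a line of pre-B cells. The labels give the strain as Balb/c for NIH3T3 and MC3T3 and as B6C3F1 for OP9 cells, and they name no treatment other than the co-culture. By the study's text, the OP9 cells of its co-culture experiment expressed the red fluorescent protein Strawberry from a retrovirus and had been sorted for high expression. They were co-cultured for a week, detached with trypsin and EDTA and sorted by their red colour. The control of that experiment was kept in conditioned medium, while the control arrays here are labelled only as an OP9 culture. If these arrays are of other OP9 cells, Strawberry, detachment and sorting cannot be told apart from co-culture. NIH3T3 and MC3T3 cells grew in Dulbecco's Modified Eagle Medium, OP9 and OP9 Strawberry cells in OptiMEM and 230-238 cells in RPMI, each with 10% FCS and 50 µg/ml gentamicin, so that in comparisons of OP9 cells with NIH3T3 or MC3T3 cells the line and its medium cannot be told apart. One MC3T3 array is described as sorted cells and the other as culture. Replicates are named biological in the labels, which give no separate cultures for them, and the study's text speaks of a pair of experiments for OP9 cells. A p-value here rests on the spread of the arrays within groups, pooled over the 4 groups. For NIH3T3 and MC3T3 cells this spread may be technical, and by the pooling it enters every comparison, that of co-culture included. A level is the deposited normalized intensity of a probe set, a fold is a ratio of group means taken on the log2 scale, and a member was called at an adjusted p below 0.05 in limma and at least a 2-fold difference. Levels of different genes come from different probes and were not compared. In bulk RNA, fewer cells of a type and less RNA per cell cannot be told apart.

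Array medians ran from 41.77 to 44.99 and 5th percentiles from 9.30 to 9.58, so a fold against a level near the bottom of the scale depends on the background. Between the 2 arrays of a group the median absolute difference of a member on the log2 scale was 0.152 in NIH3T3, 0.106 in MC3T3, 0.072 in OP9 and 0.077 in co-cultured cells, and no member differed by more than 2-fold. Of 5 marrow stroma markers, 4 reached 100 on both arrays in each OP9 group and in MC3T3 cells, and 3 did in NIH3T3 cells. Cxcl12 of that list was at 19989 and 21062 in control OP9 and 23.6 and 21.8 in NIH3T3 cells. Lepr was below 100 in both OP9 groups. Of 5 fibroblast markers, 4 reached 100 on both arrays in NIH3T3 and in each OP9 group, and 5 did in MC3T3 cells. Thy1 was below 100 in NIH3T3 cells. Sp7, Alpl and Ibsp of the osteoblast list were below 100 in MC3T3 cells, as in the other groups. Col1a1 of that list was at 2239 and 2200.3 in MC3T3 cells, lower than in NIH3T3 (3542 and 2906) and control OP9 cells (9986 and 10568). The co-cultured cells differed from the control in markers of other cell types. The summed level of 5 fat cell markers was 34452 to 34481 in control and 11752 to 11857 in co-cultured OP9 cells. The summed level of 7 leukocyte markers was 272 to 295 in control and 419.96 to 446 in co-cultured cells, and that of 7 pre-B cell markers was 2106 to 2325 and 1547 to 1811, most of it Ebf1, the member of this list that reached 100 in the OP9 groups. Of the other pre-B cell markers, Cd79a, Cd79b, Rag1 and Pax5 were below 100 in all groups, Igll1 was at 54.0 and 67.5 in control and 76.3 and 74.7 in co-cultured cells and above 100 in NIH3T3 cells, and Vpreb1 was at 25.8 and 21.6 in control and 77.7 and 76.0 in co-cultured cells. Of the leukocyte markers, Coro1a was at 25.9 and 23.9 in control and 116 and 125 in co-cultured cells, and Ptprc at 8.93 and 8.58 and at 34.6 and 31.1. The part of these markers in the results on co-culture was not tested.

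Uptake carriers bring nutrients into the cell along or against a gradient, often coupled to sodium or protons, while others exchange a solute for another, load lysosomes and the Golgi apparatus, or connect the mitochondrial matrix with the cytosol. Several work only beside a partner protein, as the light chains of the amino acid exchangers do with the heavy chain encoded by Slc3a2. In bone marrow, stromal cells provide developing blood cells with metabolites and handle iron, phosphate and minerals, and stromal lines that can turn into fat cells also handle fatty acids and carnitine. The members were grouped by what their family carries, and 4 genes that are named after a carrier without being one (Slc4a1ap, Slc7a6os, Slc9a3r1 and Slc9a3r2) were kept as a group of their own.

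Most of the members were present throughout. Of the 171 members, 118 reached 100 on all 8 arrays and 22 on only 2 or 3 arrays. The level was reached on both arrays by 131 members in NIH3T3, 142 in MC3T3, 151 in OP9 and 149 in co-cultured OP9 cells. The members nearest to the limit were Slc2a10, Slc13a5 and Slc35c1 inside it, with 101, 101 and 102 on their second highest array, and Slc39a8, Slc2a9 and Slc17a9 outside it, with 97.4, 97.2 and 95.7. Carriers that are prominent in other tissues lay below it. The insulin-regulated glucose transporter gene Slc2a4 was between 62.3 and 87.7 on the 8 arrays, the neuronal glucose transporter gene Slc2a3 between 11.8 and 43.7, the lactate exporter gene Slc16a3 between 18.6 and 35.5 and the cystine carrier gene Slc7a11 between 18.8 and 31.5. Of the 176 genes below the limit, 55 had a value of at least 50 on some array.

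The spread of the levels between the groups was wide for some members and narrow for others. The range of the 4 group means was at least 2-fold for 103 members, at least 4-fold for 35 and at least 16-fold for 11, with a median of 1.11 on the log2 scale. The mean was highest in MC3T3 cells for 52 members, in OP9 cells for 42, in NIH3T3 cells for 42 and in co-cultured OP9 cells for 35, and it was lowest in NIH3T3 cells for 77 members. A member that reached the limit only in the group where it was high had to differ between groups, and these counts are a description. Where fewer than 2 arrays outside the higher group of a comparison reached 100, the values of the member are given below with no test. Slc40a1, Slc7a2, Slc43a2 and Slc4a4 reached 100 in control and co-cultured OP9 cells alone, so their differences from NIH3T3 and MC3T3 cells also carry no test. The steadiest members were Slc25a39, of the mitochondrial glutathione carriers, with a range of 0.13 on the log2 scale, Slc25a22, a mitochondrial glutamate carrier, with 0.15, Slc30a6, a zinc carrier of the Golgi apparatus, with 0.21, Slc15a4, a lysosomal histidine and peptide carrier, with 0.26, and Slc12a9 with 0.26. Slc25a39 was between 5538 and 6125 on the 8 arrays.

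**Figure D1:**
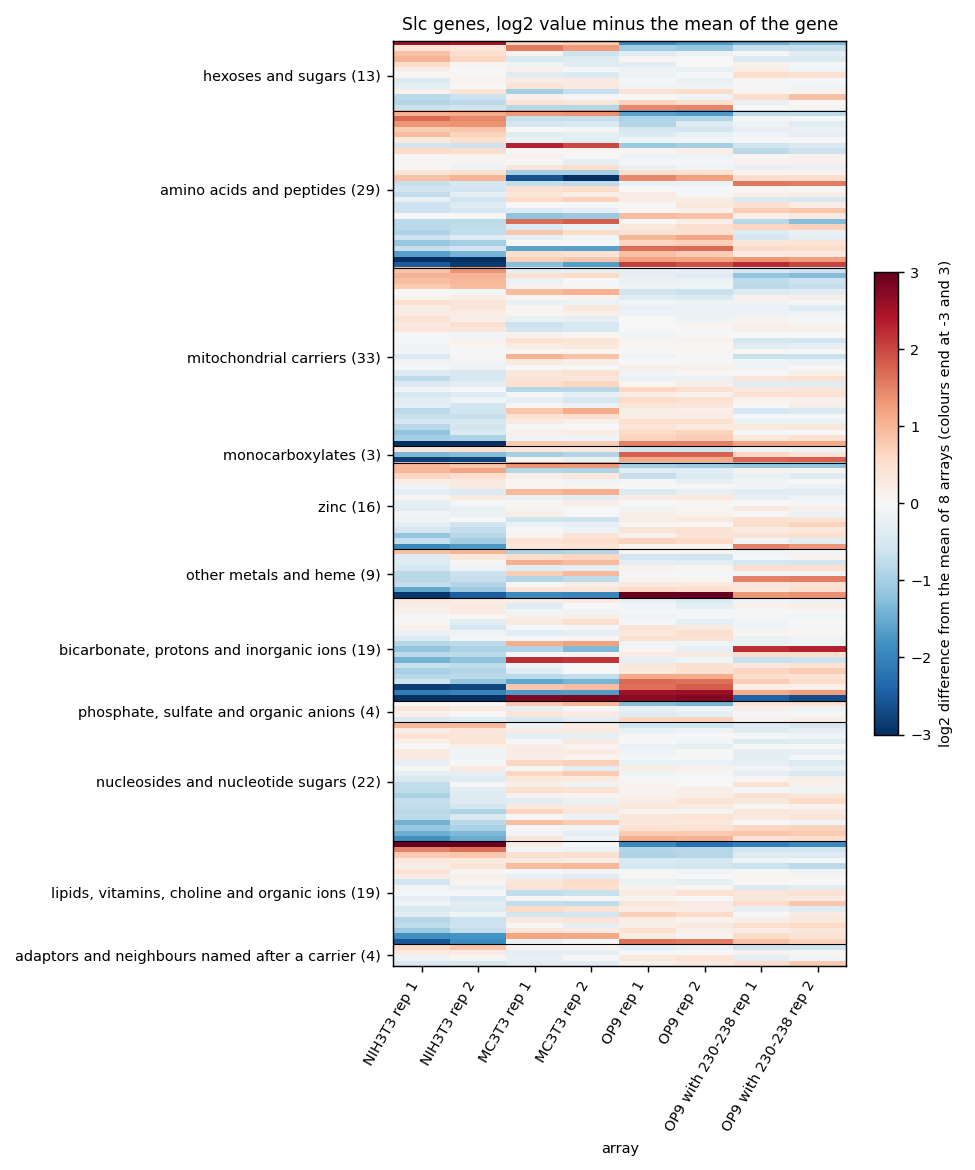
Levels of the 171 members on the 8 arrays, each row a member and each column an array, as the log2 difference from the mean of that member over all arrays (red higher, blue lower, colours end at -3 and 3), grouped by what the family carries with the number of members in brackets. The columns of the 3 lines differ from each other over most groups, whereas the OP9 and co-culture columns differ in single rows, among them Slc26a7 as the last row of the bicarbonate, proton and ion group.

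In co-culture few members changed. Compared with control OP9 cells, 5 of the 171 members were higher (2.92%), 10 were lower (5.85%) and 156 were not called, and 2.71% of all genes tested were higher and 2.97% lower. The median difference of the members on the log2 scale was -0.003, against -0.05 for all genes tested. Slc26a7 is one of the 10 lower members and had been chosen for it. Slc12a5, Slc16a4, Slc36a2 and Slc8a1 became members through the group where they were high, and 4 higher and 7 lower members are left without them. With the probe sets of each gene averaged, 2 members were higher and 6 lower. All 15 called members had arrays of both groups that did not overlap, as had 142 of the 171 members and 8124 of the 10084 genes tested. The changes were spread over the groups of carriers, and no mitochondrial carrier, nucleotide sugar carrier or carrier of lipids, vitamins and choline was called.

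The members that fell included the carriers of iron out of the cell, of calcium and of inositol. Slc26a7, encoding an anion exchanger and chloride carrier known from kidney, stomach and thyroid, was at 594 and 625 in control OP9 cells and at 16.97 and 14.3 in co-cultured cells. The co-cultured level was 39.1-fold lower and close to that of NIH3T3 cells, at 11.6 and 11, while MC3T3 cells were at 627 and 639, near the control OP9 cells. Its second probe set, which reached 100 on 2 arrays, had geometric means of 81.5 in OP9, 25.1 in co-cultured, 129 in MC3T3 and 15.5 in NIH3T3 cells, in the same order. These values describe the choice of the gene and carry no test.

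Slc40a1 encodes ferroportin, the exporter of iron from cells. It was at 925 and 879.7 in control and 225 and 235 in co-cultured OP9 cells, 3.92-fold lower (limma adjusted p = 3.41e-05), and its second probe set fell by 2.26 on the log2 scale. The groups lay far apart, and both were above the MC3T3 and NIH3T3 arrays. Tfrc, the transferrin receptor that brings iron into the cell and a gene of the partner list given below, fell as well, from 597 ± 19.2 to 164 ± 14.6 (SD, n = 2), 3.65-fold (limma adjusted p = 4.37e-06). Slc11a2, encoding the carrier of iron across the cell surface and the endosome, was at 309 and 299 in control and 399 and 402 in co-cultured cells and stayed under 2-fold (limma adjusted p = 0.0351).

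Of the calcium exchangers, Slc24a3, a potassium-dependent sodium/calcium exchanger, was at 839.9 and 948 in control and 309 and 300.4 in co-cultured cells, 2.93-fold lower (limma adjusted p = 1.33e-05). Slc8a1, the sodium/calcium exchanger best known from heart, was at 245 and 252 in control and 91.97 and 101 in co-cultured cells, 2.57-fold lower, with no test. The sodium bicarbonate cotransporter gene Slc4a4 was at 277 and 269 in control and 143 and 125 in co-cultured cells, 2.04-fold lower (limma adjusted p = 0.00207). Its call was lost without co-culture replicate 2, with a difference of -0.94 on the log2 scale, and also with a pseudocount of 16 (-0.95) and after quantile normalization (-0.96). Slc5a3, encoding the sodium-coupled uptake carrier of myo-inositol, an osmolyte, was at 3481 and 3547 in control and 1295 and 1361 in co-cultured cells, 2.65-fold lower (limma adjusted p = 6.95e-06). It was the only called member of the sugar carriers in co-culture and its second probe set above 100 fell by 1.66 on the log2 scale.

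Amino acid carriers changed in both directions. Slc1a5, encoding the sodium-coupled exchanger of glutamine and other neutral amino acids, was at 654 and 657 in control and 2234 and 2189 in co-cultured cells, 3.37-fold higher (limma adjusted p = 5.76e-06). Its relative Slc1a3, a glutamate carrier, went the other way, from 108 and 125 to 60.9 and 44.7, 2.23-fold lower (limma adjusted p = 0.000678). Its call was lost without co-culture replicate 2, with -0.93 on the log2 scale, and with a pseudocount of 16 (-0.95), and 3 of its other probe sets differed by -1.55, -1.95 and -2.56. Slc36a2, a proton-coupled carrier of small amino acids, was at 107 and 121 in control and 38.3 and 44.2 in co-cultured cells, 2.77-fold lower, and only the control arrays reached 100. Slc43a2, a carrier of large neutral amino acids, was at 435 and 448 in control and 202 and 202 in co-cultured cells, 2.18-fold lower (limma adjusted p = 2.3e-05), but its second probe set above 100 differed by -0.35 on the log2 scale.

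Of the other called members, 4 were higher and 1 was lower. Slc20a1, encoding a sodium-coupled phosphate uptake carrier, was at 203 and 189 in control and 654 and 697 in co-cultured cells, 3.45-fold higher (limma adjusted p = 6.28e-06). Slc41a1, a magnesium carrier, was at 463 and 444 in control and 1256 and 1281 in co-cultured cells, 2.80-fold higher (limma adjusted p = 1.17e-05). The co-cultured arrays of both genes lay clear of the control. Slc39a14, a carrier that brings zinc, iron and manganese into the cell, was at 357 and 349 in control and 936 and 821 in co-cultured cells, 2.48-fold higher (limma adjusted p = 5.37e-05), and its second probe set was higher by 0.80 on the log2 scale, under 2-fold. Slc12a5, the potassium chloride cotransporter known from neurons, was at 35.4 and 28.1 in control and 154 and 165 in co-cultured cells, 5.07-fold higher, and only the co-cultured arrays reached 100. Its second probe set stayed below 100 on every array and differed by 0.46 on the log2 scale. Slc16a4, a member of the monocarboxylate carriers without a settled substrate, was at 151 and 148 in control and 66.7 and 56.7 in co-cultured cells, 2.43-fold lower, with the control arrays alone above 100.

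**Figure D2:**
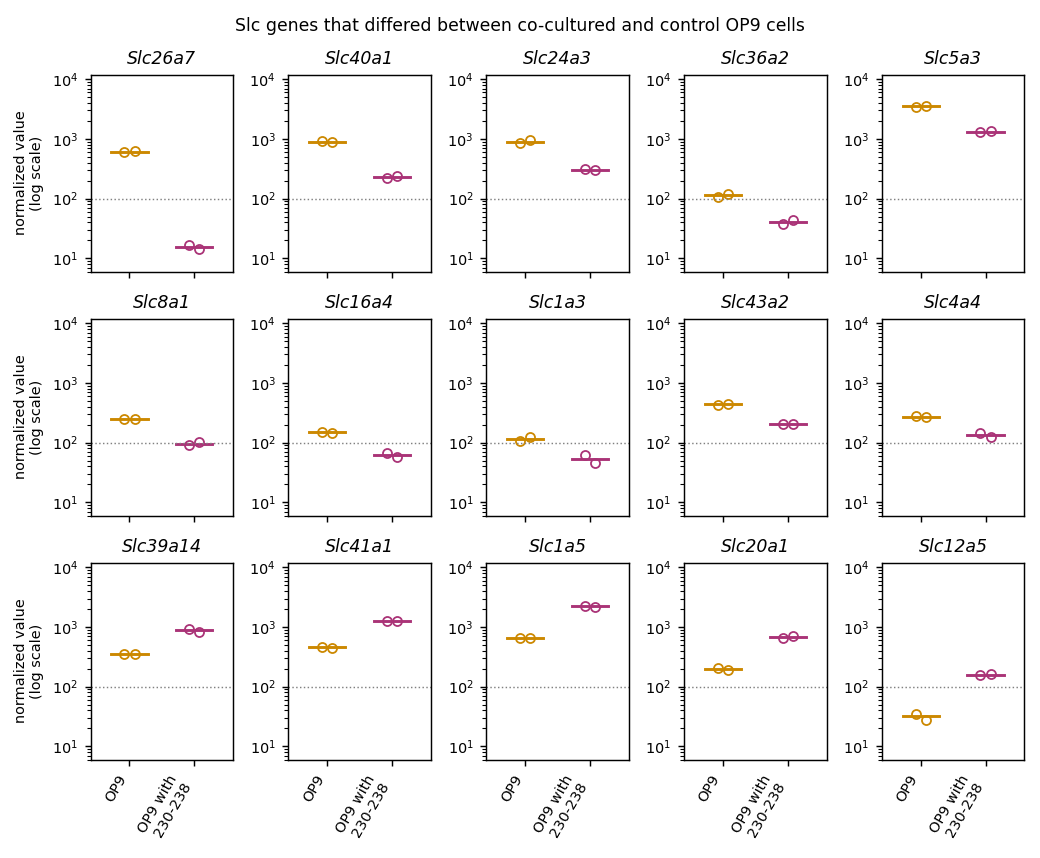
The 15 members called in co-culture, with the normalized value on a log axis for the 2 control OP9 arrays and the 2 arrays of OP9 with 230-238 (points) and their mean (bar), and the limit of 100 as a dotted line. The control and co-cultured arrays do not overlap in any panel, as for 8124 of all 10084 genes tested, and Slc26a7 was chosen for its gap.

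Differences of the mitochondrial carriers were small in co-culture. None of their 33 members was called, while 16 were lower and 4 higher at an unadjusted p below 0.05, and their median difference was -0.23 on the log2 scale, against -0.05 for all genes, of which 3091 of 10084 were lower and 1995 higher at that p. Slc25a10, the dicarboxylate carrier, was at 787 and 784 in control and 487 and 491 in co-cultured cells (limma adjusted p = 0.000261, under 2-fold). Slc25a5, an exchanger of ADP and ATP, was at 4795 and 4899 in control and 3125 and 3047 in co-cultured cells (limma adjusted p = 0.000435, under 2-fold). Slc25a20, the carrier of acylcarnitines into the matrix, was at 1168 and 1165 in control and 941 and 902 in co-cultured cells, a difference that did not pass (limma adjusted p = 0.107).

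The promoters in RefSeq, on build GRCm38.p6, were searched for motifs of regulators that are textbook examples for transporter genes, in the 250 bases before each start. Entries matched 134 of the 171 members, with 180 promoters. A form of the core of the hypoxia response element, ACGTG on either strand, lies within the E-box CACGTG, and other forms were not searched. ACGTG was found in 41 of the 180 (22.8%) and in 16.6% of all 32851 promoters. The amino acid response element of the C/EBP and ATF type, TGATGNAA, was found in 1.67% and 3.45%, and the AP-1 site, TGANTCA, in 6.67% and 6.75%. No motif contains another. None of the 10 promoters of 7 members lower in co-culture held any of the 3, and of the 5 promoters of 3 higher members 2 held ACGTG and 1 held the AP-1 site. A match is a run of letters in a window and does not show binding. Another promoter of Slc20a1 (chr2:129206846-129207095, plus strand) held none of the 3 motifs and is not printed. One promoter of Slc20a1 (chr2:129198523-129198772, plus strand) is printed for a member that rose in co-culture, that of Slc5a3 (chr16:92058072-92058321, plus strand) for a member that fell, and that of Slc2a1 (chr4:119108495-119108744, plus strand) for a large difference between the lines, each 5′ to 3′ with ACGTG in capitals, in Slc20a1 as part of CACGTG.
Slc20a1: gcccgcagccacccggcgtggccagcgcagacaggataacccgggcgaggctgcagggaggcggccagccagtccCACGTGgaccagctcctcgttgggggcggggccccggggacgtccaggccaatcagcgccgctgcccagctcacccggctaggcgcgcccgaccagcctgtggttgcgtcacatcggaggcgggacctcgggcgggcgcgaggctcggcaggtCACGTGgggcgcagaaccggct
Slc5a3: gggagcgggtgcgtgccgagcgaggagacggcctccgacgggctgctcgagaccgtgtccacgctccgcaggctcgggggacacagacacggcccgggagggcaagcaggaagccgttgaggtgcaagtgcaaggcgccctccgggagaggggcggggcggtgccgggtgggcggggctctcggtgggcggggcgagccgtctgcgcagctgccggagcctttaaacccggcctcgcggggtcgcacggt
Slc2a1: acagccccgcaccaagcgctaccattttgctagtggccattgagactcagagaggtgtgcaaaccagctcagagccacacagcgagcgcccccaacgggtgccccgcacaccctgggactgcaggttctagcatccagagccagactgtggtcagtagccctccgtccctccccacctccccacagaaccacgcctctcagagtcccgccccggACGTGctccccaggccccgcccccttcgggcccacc

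More members were called between the lines than in co-culture. In OP9 compared with NIH3T3 cells 41 of 171 members were higher (24%), 18 lower (10.5%) and 112 not called, and 20.5% of all genes tested were higher and 10.3% lower. The median difference was 0.38 on the log2 scale for the members and 0.16 for all genes. In OP9 compared with MC3T3 cells 21 were higher (12.3%), 18 lower (10.5%) and 132 not called, beside 10.5% and 9.41% of all genes, with a median of 0.004 for the members and 0.03 for all genes. In MC3T3 compared with NIH3T3 cells 36 were higher (21.1%), 15 lower (8.77%) and 120 not called, beside 17.8% and 9.65% of all genes, with medians of 0.28 and 0.12. The comparisons share arrays, and their counts are given side by side only. Without the members that reached 100 through the higher group alone, 38 were higher and 14 lower in OP9 against NIH3T3, 17 and 16 in OP9 against MC3T3, and 34 and 11 in MC3T3 against NIH3T3 cells. These counts still hold members that reached 100 only in control and co-cultured OP9 cells together, Slc40a1, Slc7a2, Slc43a2 and Slc4a4 among them. The shares of members called were close to those of all genes in each comparison. After quantile normalization the median of all genes in OP9 against NIH3T3 cells was 0.01 rather than 0.16 on the log2 scale, and a change is relative to that median.

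**Figure D3:**
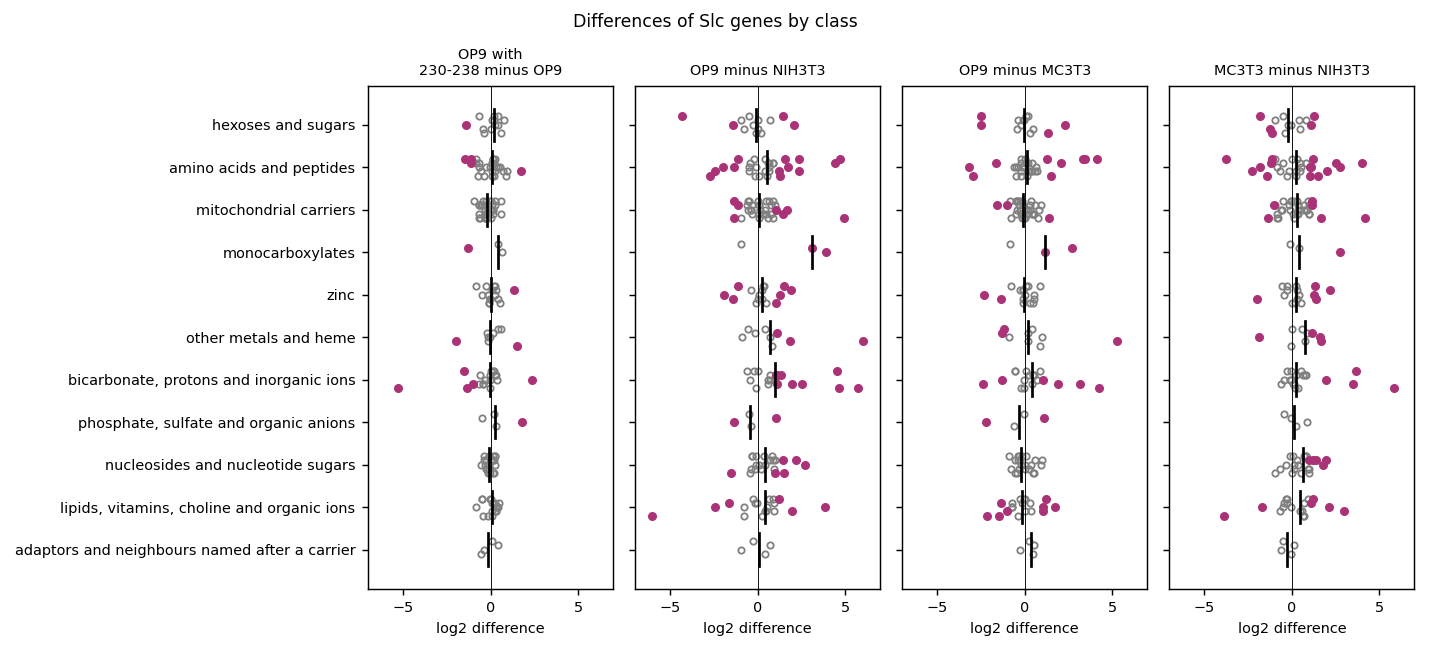
Log2 differences of the members (points) in the 4 comparisons, by what the family carries, with called members filled in purple, the others open, and the median of each group as a black bar. Between the lines, called members lie on both sides of 0 in most groups, whereas in co-culture few groups have called members on both sides. The ion carriers in OP9 against NIH3T3 cells have 9 called members above 0, Slc26a7 among them, and none below. Of all genes tested in that comparison, 20.5% were called higher and 10.3% lower.

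The glucose transporter gene Slc2a1 set the lines apart. Slc2a1, encoding the main uptake carrier of glucose in proliferating cells, was at 7143 and 6637 in NIH3T3, 1886 and 2038 in MC3T3, 323 and 376 in OP9 and 448 and 497 in co-cultured OP9 cells. NIH3T3 cells were the highest, MC3T3 cells lay between, and OP9 cells were 19.8-fold below NIH3T3 (limma adjusted p = 1.76e-08) and 5.62-fold below MC3T3 cells (limma adjusted p = 4.33e-07). Its 2 other probe sets gave log2 differences of -4.25 and -4.11 from NIH3T3 and of -2.41 and -2.24 from MC3T3 cells. The difference between the OP9 groups was 0.44 ± 0.10 on the log2 scale (SE), under 2-fold (limma adjusted p = 0.0106).

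Among the 13 members that carry hexoses and other sugars, 2 were higher and 2 lower in OP9 cells than in NIH3T3, and likewise 2 and 2 against MC3T3 cells. All genes had 20.5% higher and 10.3% lower against NIH3T3, and 10.5% and 9.41% against MC3T3 cells. Slc5a3, the inositol carrier, was highest in OP9 cells, 4.22-fold above NIH3T3, at 814 and 853, and 4.93-fold above MC3T3 cells, at 714 and 713 (limma adjusted p = 8.85e-08 and 7.84e-08). Another of its probe sets above 100 differed by 0.79 on the log2 scale in OP9 against NIH3T3 cells, under 2-fold. Slc2a6, another glucose transporter gene, followed the order MC3T3 149 and 123, NIH3T3 64.2 and 62.9 and OP9 24.2 and 22.9, and only MC3T3 cells reached 100. Slc37a3, of the sugar phosphate carriers, was at 224 and 238 in NIH3T3, 661 and 575 in OP9 and 559 and 529 in MC3T3 cells, so that OP9 and MC3T3 cells were 2.67-fold and 2.36-fold higher (limma adjusted p = 5.94e-06 and 1.46e-05). Slc45a4 was lower in MC3T3 than in NIH3T3 cells by 2.41-fold (limma adjusted p = 3.07e-05), and Slc37a2 was lower in MC3T3 cells by 2.20-fold (limma adjusted p = 0.0001). The call of Slc37a2 was lost without NIH3T3 replicate 2 (-0.99 on the log2 scale) and without MC3T3 replicate 1 (-0.98).

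Of the 29 carriers of amino acids and peptides, 8 were higher and 5 lower in OP9 cells than in NIH3T3, 6 higher and 3 lower in OP9 cells than in MC3T3, and 9 higher and 6 lower in MC3T3 than in NIH3T3 cells. The shares of all genes were 20.5% and 10.3%, 10.5% and 9.41%, and 17.8% and 9.65%, in the same order. The carriers of cationic amino acids ran in opposite directions. Slc7a1, the general uptake carrier of arginine and lysine, was at 1083 and 1132 in NIH3T3, 1271 and 1339 in MC3T3, 172 and 160.0 in OP9 and 309 and 310.2 in co-cultured cells. NIH3T3 and MC3T3 cells did not differ by 2-fold, and OP9 cells were 6.67-fold and 7.86-fold below them (limma adjusted p = 2.95e-08 and 3.66e-08). Slc7a2, the carrier of the same amino acids known from liver and activated macrophages, was at 355 and 319 in OP9 and 399 and 340.2 in co-cultured cells. It was at 14.7 and 11.5 in NIH3T3 and 35.2 and 26.5 in MC3T3 cells, far below the OP9 arrays. OP9 cells were 25.9-fold and 11.03-fold higher, with no test.

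Exchangers of large neutral amino acids also differed. Slc7a5, the light chain of the exchanger that takes up leucine, was at 1343 and 1077 in MC3T3, 186 and 177 in NIH3T3, 126 and 136 in OP9 and 178 and 199.8 in co-cultured cells. MC3T3 cells stood apart, 6.63-fold above NIH3T3 and with OP9 cells 9.21-fold below them (limma adjusted p = 4.68e-07 and 2.54e-07). Slc3a2, the heavy chain that partners it, was at 3555 and 3786 in MC3T3, 2602 and 2544 in OP9 and 1779 and 1752 in NIH3T3 cells, and passed 2-fold in MC3T3 against NIH3T3 cells (2.08-fold, limma adjusted p = 3.74e-06). Slc43a2, a facilitative carrier of the same amino acids, had the opposite order, with 435 and 448 in OP9 cells, 84.3 and 91.8 in NIH3T3 and 44.8 and 44.6 in MC3T3 cells. OP9 cells were 5.02-fold and 9.88-fold higher, with no test. Slc43a3, of the same family and described as a carrier of purine bases, was at 15.2 and 19.3 in NIH3T3 and at 370.5 and 365 in OP9 and 264 and 284 in MC3T3 cells, 21.5-fold and 16.01-fold higher (limma adjusted p = 2.61e-08 and 6.15e-08).

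The sodium-coupled carriers of small neutral amino acids differed by gene. Slc38a4 was at 15.1 and 11.5 in MC3T3 cells, near the bottom of the scale, and at 166 and 186 in NIH3T3, 251 and 217 in OP9 and 132 and 132 in co-cultured cells. OP9 cells were 17.7-fold and NIH3T3 cells 13.3-fold above MC3T3 cells (limma adjusted p = 1.62e-07 and 2.3e-07). Slc38a1 reached 100 only in NIH3T3 cells, at 262 and 264, with 56.8 and 79.7 in OP9 and 73.1 and 76.4 in MC3T3 cells (3.91-fold and 3.52-fold lower, with no test). Slc38a2, which cells induce when amino acids are scarce, was at 3489 and 3454 in OP9 cells, 3236 and 3406 in NIH3T3 and 1243 and 1259.9 in MC3T3 cells, 2.77-fold higher in OP9 cells than in MC3T3 (limma adjusted p = 6.64e-07). Of its 2 other probe sets above 100, one differed by 1.19 and the other by 0.45 on the log2 scale in that comparison, and the latter had the opposite sign, 0.31, in MC3T3 against NIH3T3 cells.

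Slc38a6 was 4.11-fold higher in OP9 cells than in MC3T3 (limma adjusted p = 3.34e-07), with 859.7 and 829.8 in OP9 and 196 and 215 in MC3T3 cells. Slc38a7, a lysosomal carrier, and Slc66a2, placed in this group by its family alone, were higher in OP9 cells than in NIH3T3. The differences were 3.32-fold and 5.06-fold (limma adjusted p = 5.15e-07 and 3.5e-07). Slc6a9, the glycine carrier known from glia, was at 1005 and 842 in NIH3T3, 164 and 169.9 in OP9 and 194 and 191 in MC3T3 cells. NIH3T3 cells stood apart, 5.51-fold above OP9 and 4.78-fold above MC3T3 cells (limma adjusted p = 1.87e-07 and 3.54e-07), and OP9 and MC3T3 cells did not differ beyond the test (limma adjusted p = 0.0789). The glutamate carrier gene Slc1a3 was at 345 and 384 in MC3T3 and 61.98 and 63.2 in NIH3T3 cells, 5.82-fold higher in MC3T3 cells (limma adjusted p = 2.28e-06).

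The 33 mitochondrial carriers had 4 members higher and 3 lower in OP9 cells than in NIH3T3, 1 higher and 2 lower against MC3T3 cells, and 4 higher and 2 lower in MC3T3 than in NIH3T3 cells. For all genes these shares were 20.5% and 10.3%, 10.5% and 9.41%, and 17.8% and 9.65%. Slc25a20, the carrier that brings fatty acids bound to carnitine into the matrix, was at 32.3 and 46.4 in NIH3T3, 699.9 and 688 in MC3T3, 1168 and 1165 in OP9 and 941 and 902 in co-cultured cells. OP9 and MC3T3 cells were 30.1-fold and 17.9-fold above NIH3T3 cells (limma adjusted p = 6.87e-08 and 2.07e-07), with log2 differences of 3.14 and 2.41 for its second probe set, and OP9 and MC3T3 cells differed by less than 2-fold (limma adjusted p = 0.00283). Carriers of phosphate and ATP spanned narrower ranges. Slc25a3, the phosphate carrier that feeds ATP synthesis, lay between 5926 and 8163 on the 8 arrays, and Slc25a4, an exchanger of ADP and ATP, was at 4575 and 4518 in NIH3T3, 8279.7 and 8610.3 in OP9 and 10026 and 10467 in MC3T3 cells, 2.25-fold higher in MC3T3 than in NIH3T3 cells (limma adjusted p = 1.82e-06).

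Other mitochondrial carriers were highest in MC3T3 or in NIH3T3 cells. Slc25a24, a carrier of ATP-Mg and phosphate, was at 3528 and 3852 in MC3T3 and 1233 and 1178 in OP9 cells (3.06-fold, limma adjusted p = 1.15e-06). Slc25a13, the aspartate and glutamate exchanger citrin, was 3.15-fold and Slc25a15, the ornithine carrier of the urea cycle, 2.19-fold higher in MC3T3 than in NIH3T3 cells (limma adjusted p = 4.3e-06 and 0.00019). Without NIH3T3 replicate 1, Slc25a15 was at 0.90 on the log2 scale and not called. In NIH3T3 cells Slc25a27, an uncoupling protein of brain, was at 160.1 and 226 and the pyrimidine nucleotide carrier gene Slc25a33 at 292 and 291. Slc25a33 was 2.53-fold lower in OP9 cells (limma adjusted p = 3.29e-06), and Slc25a27, which reached 100 in NIH3T3 cells alone, was at 74.03 and 74.1 in OP9 cells.

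Only 3 of 13 monocarboxylate carriers on the array were members. Slc16a1, the general carrier of lactate and pyruvate, was at 1676 and 1826 in NIH3T3, 1637 and 1601 in MC3T3, 901 and 876 in OP9 and 1199.8 and 1201 in co-cultured cells, and no difference reached 2-fold. Slc16a9, described as a carrier of carnitine out of the cell, was at 29.3 and 30.1 in NIH3T3, 215 and 182 in MC3T3, 445 and 445 in OP9 and 683 and 723 in co-cultured cells. Each line stood apart, with OP9 cells 14.97-fold above the NIH3T3 level and 2.26-fold above that of MC3T3 (limma adjusted p = 1.69e-08 and 1.5e-05). Slc16a4 was 8.65-fold and 6.59-fold higher in OP9 cells than in the NIH3T3 and MC3T3 lines, with no test, but its second probe set, at 100 on 1 array only, differed by -2.17 and -1.02 on the log2 scale.

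Zinc carriers fall into exporters of the cytosol, the Slc30 family, and importers, the Slc39 family. Of the 16 members, 4 were higher and 3 lower in OP9 cells than in NIH3T3, 0 higher and 2 lower than in MC3T3 cells, and 4 were higher and 1 was lower in MC3T3 than in NIH3T3 cells. Beside them stand 20.5% and 10.3%, 10.5% and 9.41%, and 17.8% and 9.65% of all genes. Slc30a4, which loads zinc into vesicles, was at 3244 and 2926 in NIH3T3, 4119 and 3962 in MC3T3, 823 and 788 in OP9 and 729.7 and 739.9 in co-cultured cells. OP9 cells were 3.83-fold and 5.02-fold lower (limma adjusted p = 2.44e-07 and 1.44e-07). Slc30a1, the zinc exporter of the cell surface, was at 71.9 and 57.4 in NIH3T3, 189.6 and 179 in OP9 and 155 and 172 in MC3T3 cells, 2.87-fold and 2.54-fold higher in the latter lines (limma adjusted p = 1.55e-05 and 3.54e-05).

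Importers of zinc ran in opposite directions. Slc39a14 was at 88.01 and 102 in NIH3T3, 357 and 349 in OP9 and 426 and 443 in MC3T3 cells, 3.73-fold and 4.58-fold higher than in NIH3T3 cells (limma adjusted p = 1e-06 and 5.61e-07). Slc39a10 was at 1605 and 1820.3 in NIH3T3, 639.8 and 641 in OP9 and 443 and 433 in MC3T3 cells, 2.67-fold and 3.91-fold lower (limma adjusted p = 1.48e-06 and 3.22e-07). Slc39a6 was highest in MC3T3 cells, 2.60-fold above NIH3T3, with OP9 cells 2.55-fold below MC3T3 cells (limma adjusted p = 3.24e-06 and 4.68e-06). Mt2, a metallothionein that binds zinc in the cytosol, was at 4341 ± 72.9 in NIH3T3, 9374 ± 279 in MC3T3 and 664 ± 20.9 in OP9 cells (SD, n = 2), 6.54-fold and 14.1-fold lower in OP9 cells than in the NIH3T3 and MC3T3 lines (limma adjusted p = 2.55e-08 and 1.02e-08).

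Among the 9 carriers of other metals and heme, 3 were higher and none lower in OP9 cells than in NIH3T3, 1 higher and 2 lower in OP9 cells than in MC3T3, and 3 higher and 1 lower in MC3T3 than in NIH3T3 cells. The shares of all genes were again 20.5% and 10.3%, 10.5% and 9.41%, and 17.8% and 9.65%. The ferroportin gene Slc40a1 was higher in OP9 cells than in both other lines. Its level was 12.2 and 16.5 in NIH3T3 and 24.4 and 23.2 in MC3T3 cells, near the bottom of the scale. OP9 cells were 63.5-fold and 37.9-fold higher, with no test, and the second probe set had log2 differences of 5.41 and 4.95. Slc48a1, which moves heme out of endosomes and lysosomes, was at 2111 and 2292 in NIH3T3 and 580.5 and 613 in MC3T3 cells, 3.69-fold lower (limma adjusted p = 2.61e-07). The copper uptake carrier gene Slc31a1 was at 885 and 822 in MC3T3, 329 and 439 in NIH3T3 and 347 and 342 in OP9 cells, 2.47-fold lower in OP9 cells than in MC3T3 (limma adjusted p = 5.63e-05), and the related Slc31a2 was 2.99-fold higher in MC3T3 than in NIH3T3 cells (limma adjusted p = 2.98e-06). Slc49a4 was 3.65-fold higher in OP9 cells than in NIH3T3 (limma adjusted p = 1.15e-05). Slc41a2, a magnesium carrier, was 2.24-fold lower in OP9 cells than in MC3T3 (limma adjusted p = 0.00115).

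Carriers of bicarbonate, protons and inorganic ions set the pH, the volume and the calcium of the cell. Of 19 members, 9 were higher in OP9 cells than in NIH3T3 and none was lower, beside 20.5% and 10.3% of all genes, with a median of 0.98 on the log2 scale, against 0.16 for all genes. Among the 9 were Slc26a7, which was chosen with the OP9 arrays, and Slc8a1, Slc4a4 and Slc9a5, which became members through control and co-cultured OP9 arrays. The count is therefore a description. In OP9 compared with MC3T3 cells 4 were higher and 2 lower (10.5% and 9.41% of all genes), and in MC3T3 compared with NIH3T3 cells 4 were higher and none was lower (17.8% and 9.65%). Slc26a7 was 53.9-fold higher in OP9 cells than in NIH3T3, which is given with no test because the OP9 arrays took part in its choice. MC3T3 cells were 56.01-fold above NIH3T3 cells (limma adjusted p = 4.31e-09), and OP9 and MC3T3 cells differed by -0.06 ± 0.09 on the log2 scale (SE).

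Of the calcium exchangers, Slc24a3 was at 38.1 and 40.3 in NIH3T3 and 471 and 510.3 in MC3T3 cells, and OP9 and MC3T3 cells were 22.8-fold and 12.5-fold above NIH3T3 cells (limma adjusted p = 6.64e-09 and 2.5e-08). Slc8a1 was at 9.81 and 10.5 in NIH3T3 and 12.99 and 13.2 in MC3T3 cells, at the bottom of the scale, and OP9 cells were 24.5-fold and 18.99-fold higher, with no test. Slc24a3 was above 100 in OP9 and MC3T3 cells, whereas for Slc8a1 only OP9 arrays, 1 of the co-culture among them, were above 100. Slc4a4 was also higher in OP9 cells, with 56.4 and 38.9 in NIH3T3 and 28.9 and 32.2 in MC3T3 cells, 5.83-fold and 8.96-fold below OP9 cells, with no test. Slc12a7, a potassium chloride cotransporter, was at 857 and 851 in OP9 cells, 219 and 227 in NIH3T3 and 226 and 234 in MC3T3 cells, 3.83-fold and 3.72-fold higher in OP9 cells (limma adjusted p = 1.61e-07 and 2.67e-07). MC3T3 cells stood out in Slc9a9, a proton exchanger of endosomes, at 390.1 and 371, against 31.4 and 36.2 in NIH3T3 and 69.6 and 76.3 in OP9 cells (11.3-fold and 5.22-fold, with no test). They were also the highest in Slc26a2, the sulfate carrier that cartilage and bone matrix depend on, at 433 and 468, against 112 and 117 in NIH3T3 and 186 and 185 in OP9 cells (3.93-fold and 2.42-fold, limma adjusted p = 2.04e-07 and 2.42e-06).

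The 4 carriers of phosphate and organic anions were called in single cases. Slc20a1 was at 865 and 968 in MC3T3, 498 and 504 in NIH3T3 and 203 and 189 in OP9 cells, 4.67-fold and 2.56-fold lower in OP9 cells (limma adjusted p = 2.72e-07 and 2.51e-06). The co-cultured OP9 cells, at 654 and 697, lay between the NIH3T3 and MC3T3 arrays. Its relative Slc20a2 was between 239 and 403 on the 8 arrays. The other probe set of Slc20a2, at 100 on all 8 arrays, differed by -1.63 on the log2 scale in OP9 against MC3T3 cells. Against NIH3T3 cells it differed by -0.95. Slc17a5, the sialic acid exporter of lysosomes, was 2.07-fold and 2.13-fold higher in OP9 cells than in the NIH3T3 and MC3T3 lines (limma adjusted p = 8.29e-06 and 1.05e-05). After quantile normalization its difference from NIH3T3 cells was 0.87 on the log2 scale and no longer called.

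Carriers of nucleosides and nucleotide sugars supply nucleotides and the sugar donors of the Golgi apparatus. Of the 22 members, 5 were higher and 1 was lower in OP9 cells than in NIH3T3. In MC3T3 compared with NIH3T3 cells 5 were higher and none was lower, and none was called in OP9 against MC3T3 cells. The shares of all genes were 20.5% and 10.3%, 17.8% and 9.65%, and 10.5% and 9.41%, in the same order. At an unadjusted p below 0.05 in OP9 against MC3T3 cells, 7 of the 22 were higher and 9 lower, beside 3738 and 3253 of all 10084 genes. Slc35a5 was at 90.7 and 116 in NIH3T3, 691 and 664 in OP9 and 417 and 305 in MC3T3 cells, 6.61-fold and 3.48-fold higher than in NIH3T3 cells (limma adjusted p = 2.4e-06 and 2.81e-05). Slc29a3, a nucleoside carrier of lysosomes, was at 92.1 and 101 in NIH3T3, 437 and 440.1 in OP9 and 241 and 210.2 in MC3T3 cells, 4.54-fold higher in OP9 cells than in NIH3T3 (limma adjusted p = 2.77e-07). Slc35b4, a carrier of UDP-xylose and UDP-N-acetylglucosamine, was 3.90-fold higher in MC3T3 than in NIH3T3 cells (limma adjusted p = 2.33e-05). Slc35e4, at 541 and 533 in NIH3T3 and 183 and 187 in OP9 cells, was the member that was lower, 2.90-fold (limma adjusted p = 1.08e-05). Slc29a1, the general nucleoside carrier of the cell surface, lay between 1284 and 1766 on all arrays.

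Among the 19 carriers of lipids, vitamins, choline and organic ions, 3 were higher and 3 lower in OP9 cells than in NIH3T3, 4 higher and 4 lower in OP9 cells than in MC3T3, and 4 higher and 2 lower in MC3T3 than in NIH3T3 cells. All genes had 20.5% and 10.3%, 10.5% and 9.41%, and 17.8% and 9.65% in these comparisons. Slc22a23, an organic ion carrier without a settled substrate, was at 1365 and 1379 in NIH3T3, 101 and 85.4 in MC3T3, 22.9 and 18.4 in OP9 and 21.1 and 22.8 in co-cultured cells. NIH3T3 cells were 66.9-fold above OP9 and 14.7-fold above MC3T3 cells, given with no test because 1 array outside NIH3T3 reached 100, and the gene had no other probe set to compare it with.

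The fatty acid transport proteins of this group ran in opposite directions. Slc27a1, which is known from muscle and fat cells, was at 721 and 801 in NIH3T3, 243 and 226 in MC3T3 and 138 and 141 in OP9 cells, 5.44-fold lower in OP9 and 3.25-fold lower in MC3T3 than in NIH3T3 cells (limma adjusted p = 9.2e-08 and 7.08e-07). Slc27a3 was at 38.1 and 39 in NIH3T3, 157 and 146 in OP9 and 309 and 301 in MC3T3 cells, 3.93-fold and 7.91-fold higher (limma adjusted p = 2.56e-07 and 4.19e-08). Slc18b1, a carrier of polyamines, was at 45.1 and 70.5 in NIH3T3, 233 and 255 in MC3T3 and 825 and 786 in OP9 cells, and each line was apart from the others, with OP9 cells 14.3-fold above the NIH3T3 level and 3.31-fold above that of MC3T3 (limma adjusted p = 7.7e-07 and 0.000104). Slc22a5, which takes up carnitine, was 2.29-fold higher in OP9 cells than in MC3T3, and Slc19a2, which takes up thiamine, was 2.82-fold lower (limma adjusted p = 3.85e-05 and 4.85e-06). Slc44a1, the choline carrier, was 3.19-fold lower in OP9 cells than in NIH3T3 (limma adjusted p = 2.3e-07), but its second probe set at 100 on all arrays differed by 0.12 on the log2 scale, of the opposite sign.

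**Figure D4:**
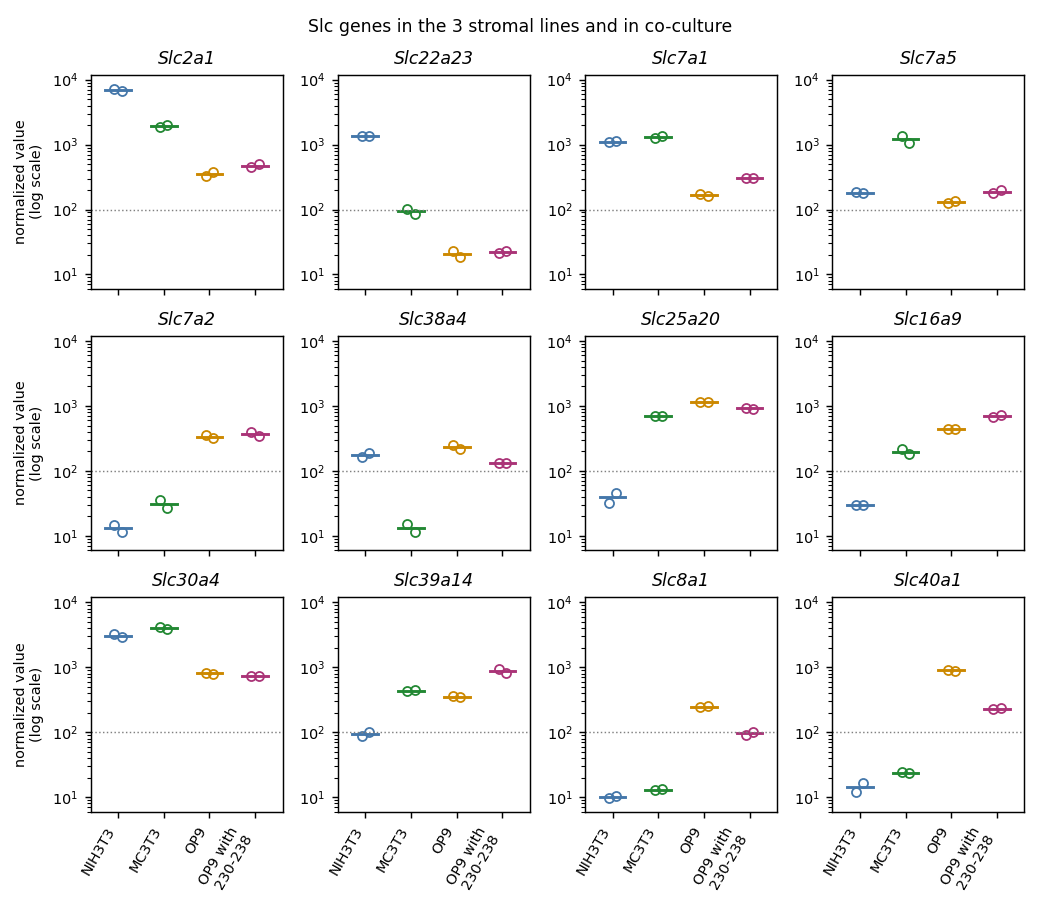
Normalized values of 12 members on a log axis in NIH3T3, MC3T3, OP9 and OP9 with 230-238 cells, with the 2 arrays of each group as points, their mean as a bar and the limit of 100 as a dotted line. Slc2a1, Slc22a23, Slc7a1 and Slc30a4 are lowest in the OP9 groups, Slc7a2, Slc8a1 and Slc40a1 are highest there, and Slc7a5 is high in MC3T3 cells only.

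None of the 4 genes named after a carrier was called in any comparison. At an unadjusted p below 0.05 in limma, 1 was higher and 2 were lower in co-culture, and 2 and 2 in OP9 against NIH3T3 cells. Of 10084 genes, 1995 were higher and 3091 lower at that p in co-culture, and 4738 and 3262 in OP9 against NIH3T3 cells. Slc9a3r1, an adaptor that anchors carriers to the cytoskeleton, was at 493 and 583 in NIH3T3, 272 and 288 in OP9 and 217 and 215 in co-cultured cells.

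Proteins that work with solute carriers, or are carriers under another name, were listed as 19 partner genes, 14 of which were tested. In co-culture 2 of the 14 were lower and none higher, with a median of -0.42 on the log2 scale, beside 2.97% and 2.71% of all genes and their median of -0.05. These were Tfrc and Ctns, the cystine exporter of lysosomes, which was 2.03-fold lower in co-cultured cells (limma adjusted p = 0.000335). In OP9 compared with NIH3T3 cells 4 were higher and 1 was lower, beside 20.5% and 10.3% of all genes. In OP9 compared with MC3T3 cells 1 was higher and 3 were lower (10.5% and 9.41% of all genes), and in MC3T3 compared with NIH3T3 cells 6 were higher and 1 was lower (17.8% and 9.65%). Emb, the glycoprotein embigin that helps monocarboxylate carriers to the cell surface, was at 4791 ± 8.9 in OP9 cells, 6631 ± 418 in NIH3T3 and 139 ± 2.1 in the MC3T3 line (SD, n = 2), 34.5-fold higher in OP9 cells than in MC3T3 (limma adjusted p = 4.31e-09). Bsg, basigin, which has the same role, was at 10199 ± 196 in OP9 and 10495 ± 358 in co-cultured cells (SD, n = 2), and its arrays overlapped. Atp1b1, a subunit of the sodium pump that drives many carriers, was 11.9-fold lower in OP9 cells than in MC3T3 (limma adjusted p = 1.24e-07). Mpc1, a subunit of the mitochondrial pyruvate carrier, was 2.46-fold higher in OP9 cells than in NIH3T3 (limma adjusted p = 1.81e-05).

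Of the 171 members, 111 had several probe sets, and 13 were measured by probe sets of the _x_at or _s_at kind that can bind related transcripts. Other probe sets with at least 100 on at least 2 arrays had the sign of the call in 11 of 11 cases in co-culture, 9 of them at 2-fold. The sign was the same in 41 of 42 cases in OP9 against NIH3T3 cells, 33 of them at 2-fold. In OP9 against MC3T3 cells it was the same in 26 of 27, 25 of them at 2-fold. For MC3T3 against NIH3T3 cells it was the same in 36 of 37, 30 of them at 2-fold. In co-culture the exceptions at 2-fold were Slc39a14 and Slc43a2, and the opposite signs between lines belonged to Slc44a1 and Slc38a2. With probe sets averaged, the co-culture calls of Slc39a14 (0.84 on the log2 scale) and Slc43a2 (-0.79) were lost, and Slc12a5, Slc16a4, Slc20a1, Slc4a4 and Slc8a1 no longer reached 100 on 2 arrays and were not tested, nor were Slc7a2, Slc9a9, Slc35a5, Slc49a4, Slc66a2, Slc25a27 and Slc26a2. Lost were also those of Slc39a14 (0.94), Slc30a1 (0.91) and Slc44a1 (-0.46) in OP9 against NIH3T3 cells, of Slc39a6 (-0.997) in OP9 against MC3T3 cells and of Slc38a2 (-0.85) and Slc45a4 (-0.71) in MC3T3 against NIH3T3 cells.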

How the data were processed

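RNA of NIH3T3, MC3T3, OP9 and co-cultured OP9 cells was hybridized to 2 arrays a group. The deposited values are normalized intensities, not logarithms, of 45101 probe sets. The methods state joint normalization in RMA Express for the arrays of a receptor and ligand analysis and also name affylmGUI and dChip. Which of these made the deposited values is unclear. Labelled cRNA was made from few cells per array according to the labels.

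By the annotation of the array, 34958 probe sets had a single gene symbol, 932 had several and 9211 had none. Those with several were not named, and 6 of them held an Slc symbol. All 171 members matched a RefSeq gene by number, with the same symbol. Values were taken to log2 without a pseudocount, each gene was represented by the probe set of highest mean, and a level of 100 on 2 arrays or more was required. The means of the 4 groups were fitted with lmFit and eBayes of limma 3.58.1 in R 4.3.3, with 4 residual degrees of freedom and Benjamini-Hochberg adjustment over 10084 genes. Samples were grouped by their titles. The number of arrays limits the precision, and no arrays were left out. The model was tested on simulated data.

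The members, the families' roles, the partner and marker lists and the alternatives were chosen with earlier results of these data known, and family 66 and the 4 genes named after a carrier were put in a group after the members were seen. Named were, per comparison, up to 10 called members with the largest fold in each direction and arrays that did not overlap, up to 2 per group of carriers, the 5 members with the smallest range, family members called in opposite directions and Slc26a7. Not every gene of this rule is named, and other members complete the description of a pathway and were chosen after their values were seen. The alternatives tried were a filter at 200 or none, median scaling, quantile normalization, 16 added before log2, only the arrays of the groups compared, a robust prior with a trend, replicate numbers as a block, probe sets averaged per gene, _x_at and _s_at probe sets omitted, and each array omitted in turn.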

Additional observations from a re-analysis of the deposited data

How the results depend on the processing

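When the probe sets of a gene were averaged, 2 members were higher and 6 lower in co-culture instead of 5 and 10. This average includes probe sets below 100, and members whose mean fell under the minimum were not tested. The other counts of called members, in all 4 comparisons and under the alternatives run, stayed within 1.5 times. No result on a named member that was called and could be tested again changed its direction. Of 145 results on named members, 9 fell under the 2-fold or p limit after quantile normalization and 10 with a pseudocount of 16. With averaged probe sets 12 fell under it and 103 did not, and the rest were not tested. The 145 include results that were not called at first, such as those of Slc25a39, and these had no call to lose. With averaged probe sets some were far from 2-fold, at -0.46 on the log2 scale for Slc44a1 in OP9 against NIH3T3 cells, 0.63 for Slc38a10 and 0.74 for Slc35a2, the last at 0.53 without _x_at and _s_at probe sets. With the replicate number as a block, no call was lost, and 5 members were higher and 10 lower in co-culture, 41 and 18 in OP9 against NIH3T3 cells. Replicates with the same number had deviations that correlated between -0.004 and 0.18, the latter for OP9 with MC3T3 cells. Whether replicates of a number share a batch was not tested. Values near the 5th percentile of an array lie in its background, and folds against them are uncertain in size.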
